A study of Rattus norvegicus with 6 samples.

Results

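The ATP-binding cassette (ABC) efflux pumps of the kidney tubule were examined in the renal cortex of rats given o-nitroanisole. They comprise the multidrug resistance-associated proteins Abcc1, Abcc2, Abcc3, Abcc4 and Abcc6, the P-glycoprotein genes Abcb1a and Abcb1b, and the breast cancer resistance protein Abcg2. Their probes were taken by RefSeq accession, which gave 19 of the 61657 non-control probes of the array and all 8 genes, of 32428 genes and unnamed probes tested in all. RNA from the cortex of 6 male rats (strain Sprague-Dawley, Crl:CD(SD), 5 weeks of age at purchase) was hybridised to 6 one-colour arrays, 1 per rat. For 4 weeks, 3 rats were given corn oil as control and 3 were given o-nitroanisole at 400 mg/kg/day. The tissue was whole cortex, so a level here is an average over all its cells, and fewer cells of a type cannot be told apart from less RNA per cell.

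ABC pumps use ATP to carry drugs, organic anions and conjugated metabolites out of cells. In the proximal tubule, carriers on the blood side take such compounds into the cell, and Abcc2, Abcc4, Abcg2 and P-glycoprotein on the luminal membrane pass them into the urine. Other members, such as Abcc1, Abcc3 and Abcc6, lie on the blood side. Several of these genes are known targets of the antioxidant factor NRF2 and of xenobiotic nuclear receptors. o-Nitroanisole is a nitroaromatic compound whose metabolites are excreted in part as glucuronide and sulfate conjugates, the kind of substrate these pumps carry.

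The share of non-control probes that stood well above background was 66.4% to 71.5% over the arrays, and 18 of the 19 pump probes were so on all 6 arrays. All 19 entered the tests, the remaining one, for Abcc1, through its corn oil arrays alone. Markers of the labelled tissue were detected: all 12 proximal tubule markers examined, such as Lrp2, Cubn and Slc34a1, entered the tests. The corn oil group occupied slide 1 and the o-nitroanisole group slide 2, each scanned in its own run, so that slide and treatment cannot be told apart for any difference given here. Values are given as multiples of the array's 75th percentile signal, and differences as log2 of o-nitroanisole over corn oil with limma's moderated standard error (SE). The brightest probe of a gene stood for it, and probes of different genes were not set against each other.

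Abcc4 and Abcc2, a pair of luminal pumps, were higher after o-nitroanisole, by 1.91-fold and 1.74-fold. Both passed an adjusted p of 0.05 in 1 of the 2 fits described next. Abcc3 read 1.18-fold of corn oil and passed an adjusted p of 0.05 in no setting run. Abcc1 and Abcg2 lay near the corn oil level, and the values of Abcc1, Abcg2, Abcc6 and both P-glycoprotein genes overlapped between groups. With limma's default moderation none of the 8 genes passed an adjusted p of 0.05, as none of the 32428 features did (0%), while 3 of the 8 had an unadjusted p under 0.05, all higher. Of all features, 18.9% had such a p in either direction, 11.8% with o-nitroanisole higher and 7.12% with it lower. When limma's moderation followed a variance trend with the robust option (named the trend and robust fit here), 2 of the 8, Abcc4 and Abcc2, passed an adjusted p of 0.05, where 1.61% of all features did and 1.24% did with o-nitroanisole higher. The groups did not overlap for 3 of the 8 genes, again all higher, against 27.2% of all features in either direction, 17.6% with o-nitroanisole higher and 9.56% with it lower. The median log2 difference was 0.11 over the 8 genes and 0.03 over all features.

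**Figure D1:**
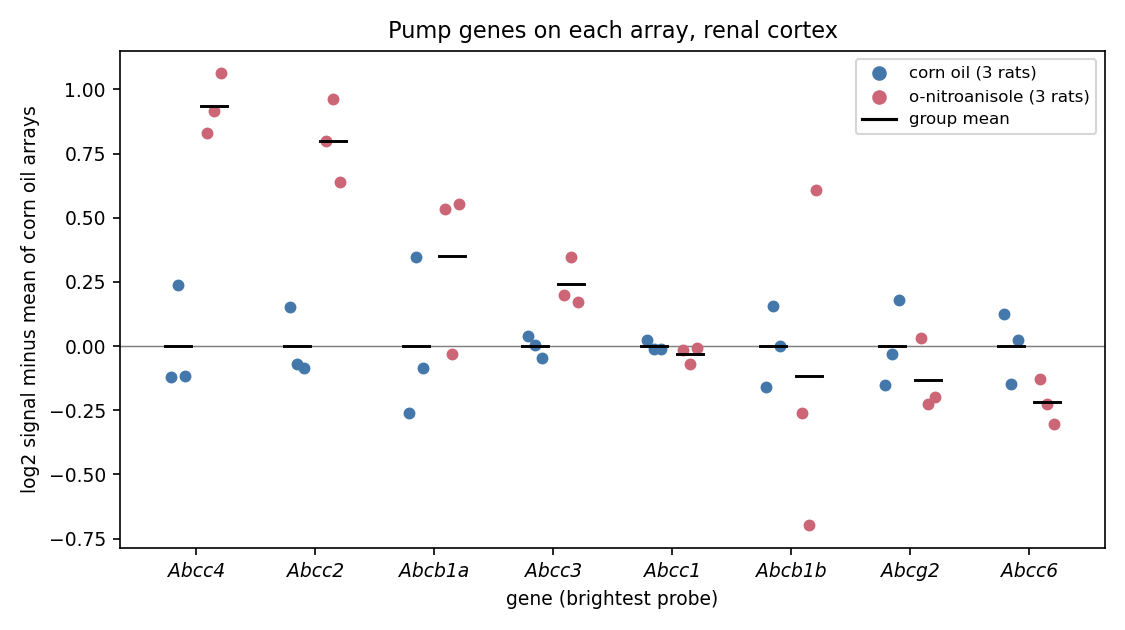
Log2 signal of the brightest probe of each pump gene on each array, less the mean of the corn oil arrays, with 3 corn oil and 3 o-nitroanisole rats as points and group means as lines. The groups do not overlap for Abcc4, Abcc2 and Abcc3, while Abcb1b spreads widely within o-nitroanisole.

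Abcc4, also called MRP4, exports cyclic nucleotides, urate, prostaglandins and many conjugated anions into the urine. Its brightest probe read 3.994, 5.11 and 3.996 times the 75th percentile on the corn oil arrays and 7.71, 8.19 and 9.06 times on the o-nitroanisole arrays. Every o-nitroanisole rat was above every corn oil rat, and corn oil replicate 2 was the highest of its group. The log2 difference was 0.94 ± 0.12 (SE, n = 3 per group), with a 95% interval from 0.63 to 1.25 (limma adjusted p = 0.0878 with default moderation and 0.0295 with trend and robust moderation). By unadjusted p it ranked 129 of 32428 features. Fits that each left out a single array gave 0.87 to 1.05.

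The 4 probes for Abcc4 gave closely similar differences, from 0.78 to 0.96 log2, and none of them overlapped between groups. Over probes, 27.2% did not overlap in either direction. The probe next in brightness read 1.90, 2.39 and 1.82 in corn oil and 3.81, 3.78 and 4.23 in o-nitroanisole. The dimmest read 0.235, 0.331 and 0.301 against 0.463, 0.466 and 0.549. Corn oil replicate 2 was the highest corn oil array on each of these 3 probes. Tested singly among 41096 probes in the trend and robust fit, 3 of the 4 passed an adjusted p of 0.05, where 1.61% of probes did, and the dimmest had an adjusted p of 0.0538.

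Abcc2, also called MRP2, is the luminal pump for glutathione and glucuronide conjugates and is also found on the bile canaliculus of the liver. Its only probe read 2.64, 2.26 and 2.24 in corn oil and 4.13, 4.62 and 3.70 in o-nitroanisole. All o-nitroanisole rats were above all corn oil rats, with o-nitroanisole replicate 3, the highest for Abcc4, the lowest of its group here. The log2 difference was 0.80 ± 0.11 (SE, n = 3 per group), with a 95% interval from 0.52 to 1.08 (limma adjusted p = 0.0880 with default moderation and 0.0319 with trend and robust moderation). It ranked 171 of 32428 by unadjusted p and lay between 0.72 and 0.88 when single arrays were left out. With 1 probe, Abcc2 has no second reading on the array.

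The calls of both genes in the trend and robust fit were mostly lost with 1 array fewer. That fit called Abcc4 alone without corn oil replicate 2 (adjusted p = 0.0362) and neither gene in any of the other 5 cases.

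The promoter sequences of both genes are shown because they are the pumps with the largest differences, with Abcc1 for comparison as a gene of the same family near the corn oil level. RefSeq's promoter table for assembly GRCr8 held 7 of the 8 genes. The 250 bases before each start are given 5′ to 3′ along the gene, with capitals marking the core of the xenobiotic response element bound by the aryl hydrocarbon receptor (AhR), GCGTG, which reads CACGC on the other strand.
Abcc4 promoter, chr15:102181365-102181614, minus strand, GRCr8: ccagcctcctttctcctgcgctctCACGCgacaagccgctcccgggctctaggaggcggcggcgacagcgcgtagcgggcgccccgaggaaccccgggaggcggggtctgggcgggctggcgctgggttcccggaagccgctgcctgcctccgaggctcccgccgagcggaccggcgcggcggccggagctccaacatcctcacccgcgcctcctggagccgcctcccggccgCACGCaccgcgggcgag
Abcc2 promoter, chr1:252613625-252613874, plus strand, GRCr8: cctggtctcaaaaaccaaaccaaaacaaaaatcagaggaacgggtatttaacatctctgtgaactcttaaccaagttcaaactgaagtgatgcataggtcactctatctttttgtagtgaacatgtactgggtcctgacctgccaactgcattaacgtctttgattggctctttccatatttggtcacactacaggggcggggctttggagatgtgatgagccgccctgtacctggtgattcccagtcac
Abcc1 promoter, chr10:1162368-1162617, minus strand, GRCr8: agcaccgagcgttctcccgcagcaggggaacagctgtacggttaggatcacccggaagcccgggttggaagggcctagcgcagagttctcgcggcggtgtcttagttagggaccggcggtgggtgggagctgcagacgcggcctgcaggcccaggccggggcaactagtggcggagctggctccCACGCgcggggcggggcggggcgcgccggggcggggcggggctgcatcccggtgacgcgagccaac
Both strands were searched for this core and for the core of the antioxidant response element, TGACNNNGC, a pair of motifs that do not contain each other. GCGTG was found at 2 places before Abcc4, 226 to 222 and 17 to 13 bases before the start, at 1 place before Abcc1 and at none before the other 5 genes. It occurs in 27.2% of 27457 promoters of the same length. TGACNNNGC was in none of the 7 windows and in 10.2% of all promoters. The window of Abcc4 is 77.6% G and C, that of Abcc1 72.8% and that of Abcc2 45.2%. These are matches of letters only.

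Abcc3, a blood-side pump for glucuronides and bile acids, gave 0.357, 0.348 and 0.336 in corn oil and 0.399, 0.442 and 0.391 in o-nitroanisole. The groups did not overlap on this brightest probe, and the log2 difference was 0.24 ± 0.07 (SE, n = 3 per group) with a 95% interval from 0.06 to 0.42 (limma adjusted p = 0.176). Its other probes, both dimmer, overlapped between groups. One of them read 0.0872, 0.105 and 0.0965 in corn oil and 0.138, 0.331 and 0.103 in o-nitroanisole, a log2 difference of 0.80 with a 95% interval from -0.26 to 1.86. On all 3 probes o-nitroanisole replicate 2 was the highest array. The mean of the 3 probes gave 0.41 log2, over 1.5 times the value of the brightest probe.

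Abcc1, or MRP1, a blood-side exporter of glutathione conjugates found in most tissues, had an SD of 0.02 log2 within corn oil and 0.03 within o-nitroanisole. Its brightest probe read 2.07, 2.02 and 2.02 in corn oil and 2.02, 1.94 and 2.03 in o-nitroanisole, with overlapping groups. It differed by -0.03 ± 0.05 log2 (SE, n = 3 per group; limma adjusted p = 0.802). Its 95% interval ran from 0.891-fold to 1.08-fold. Both probes next in brightness gave -0.04 and 0.03. The fourth, at 0.0157 to 0.0378 times the 75th percentile, was not well above background on o-nitroanisole replicate 2 and gave -0.41 with a 95% interval from -1.08 to 0.27.

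Abcg2, a luminal pump that exports urate and sulfate conjugates, read 11.3, 12.3 and 14.2 in corn oil and 12.9, 10.7 and 10.9 in o-nitroanisole on its brightest probe. The groups overlapped, and o-nitroanisole replicate 1 lay within the corn oil range. Between groups it differed by -0.13 ± 0.12 log2 (SE, n = 3 per group; limma adjusted p = 0.586), with a 95% interval from 0.746-fold to 1.12-fold. Its second probe, with 9.61, 10.5 and 12.0 in corn oil and 11.4, 9.76 and 9.49 in o-nitroanisole, gave -0.07.

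Abcc6, known for its loss in the calcification disorder pseudoxanthoma elasticum and for release of ATP, had 1 probe. It read 2.13, 1.76 and 1.98 in corn oil and 1.78, 1.67 and 1.58 in o-nitroanisole. Replicate 1 of o-nitroanisole lay just above the lowest corn oil array, so the groups overlapped. The difference of -0.22 ± 0.09 log2 (SE, n = 3 per group; limma adjusted p = 0.287) had a 95% interval from -0.45 to 0.01.

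Rats carry a pair of P-glycoprotein genes for drug export, Abcb1a and Abcb1b, which neighbour each other on chromosome 4 with the phospholipid transporter Abcb4 beside Abcb1b. The genes are close copies of each other, and whether a probe reads only its named gene was not examined. Abcb1a had 1 probe, which read 0.0452, 0.0689 and 0.0511 in corn oil and 0.0785, 0.0531 and 0.0795 in o-nitroanisole. Replicate 2 of o-nitroanisole lay within the corn oil range and the other two lay above it. The log2 difference was 0.35 ± 0.22 (SE, n = 3 per group; limma adjusted p = 0.450), and left-out single arrays gave 0.22 (without corn oil replicate 1) to 0.54 (without o-nitroanisole replicate 2). Normexp background correction also gave 0.22.

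Abcb1b read 0.776, 0.964 and 0.867 in corn oil and 0.723, 0.533 and 1.32 in o-nitroanisole on its brightest probe. The o-nitroanisole rats held both the lowest and the highest value, with an SD of 0.66 log2 against 0.16 in corn oil. The log2 difference was -0.12 ± 0.33 (SE, n = 3 per group; limma adjusted p = 0.877), and its 95% interval ran from 0.522-fold to 1.63-fold. It was 0.17 without o-nitroanisole replicate 2 and -0.48 without o-nitroanisole replicate 3. The other 2 probes showed the same high array. They read 0.394 and 0.0999 on o-nitroanisole replicate 3, the highest value of each, and 0.103 and 0.0377 on o-nitroanisole replicate 2. Their log2 differences were -0.73 and 0.03.

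**Figure D2:**
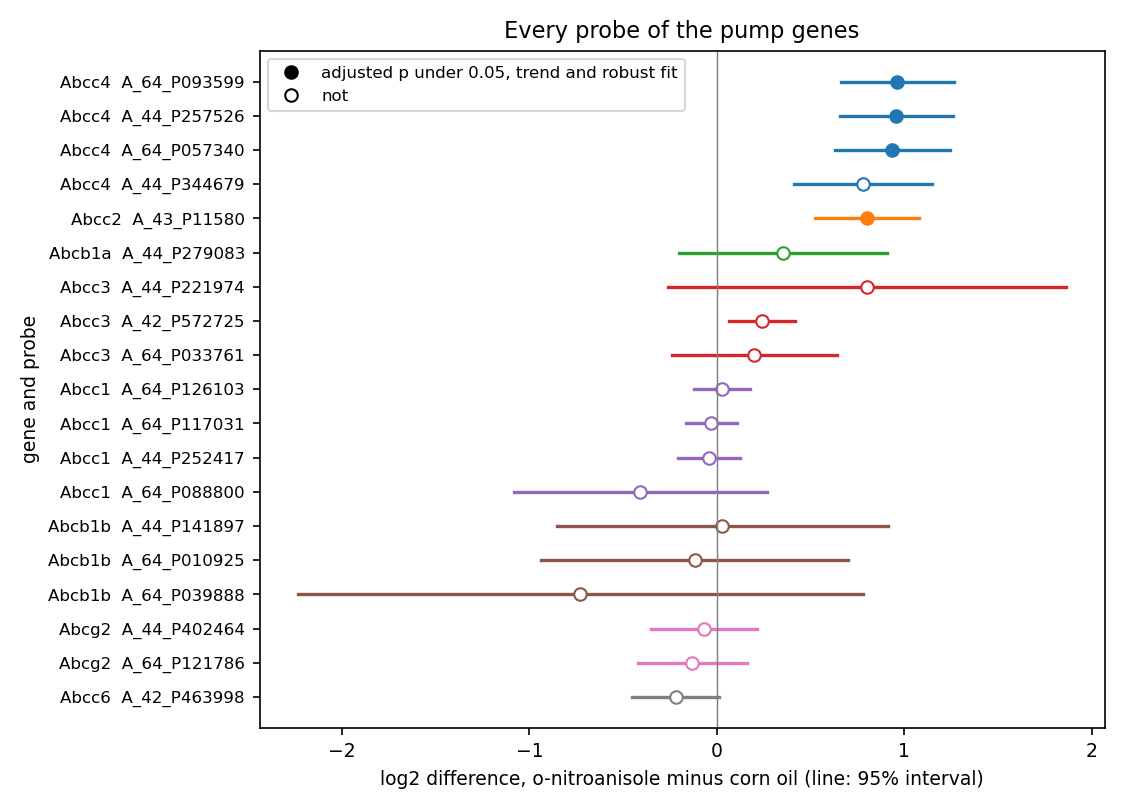
Log2 difference of each of the 19 pump probes with its 95% interval, grouped by gene, from the fit over 41096 probes; filled points passed an adjusted p of 0.05 in the trend and robust fit. All 4 probes of Abcc4 lie between 0.78 and 0.96, while the probes of Abcb1b run from -0.73 to 0.03.

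The pumps were set beside the other members of the ABC family, whose symbols start with Abca to Abcg. Of 34 such genes on the array 28 were tested, with a median log2 difference of 0.10. At an unadjusted p under 0.05, 2 were higher and 2 lower, against 11.8% and 7.12% of all features, and none passed an adjusted p of 0.05 in either fit. The highest were Abca15 at 0.87 ± 0.32 log2, Abcc10 at 0.35 ± 0.17 and Abcf1 at 0.28 ± 0.07. Abca15 cleared background on 2 of 3 corn oil arrays, and Abcf1, which takes part in translation and is no transporter, read 16.8, 16.8 and 15.5 in corn oil and 19.7, 18.9 and 20.9 in o-nitroanisole. The lowest were Abcc8, the sulfonylurea receptor, at -0.91 ± 0.33, the retinoid transporter Abca4 at -0.36 ± 0.13 and Abcc9, a potassium channel subunit, at -0.34 ± 0.15. The 95% interval held 0 for all further genes tested of the Abcb (7), Abcg (6), Abcd (3) and Abce (1) subfamilies. Some of these intervals were wide, that of Abcb11 from 0.353-fold to 3.40-fold. An interval without 0 goes with an unadjusted p under 0.05, which 18.9% of all features had.

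**Figure D3:**
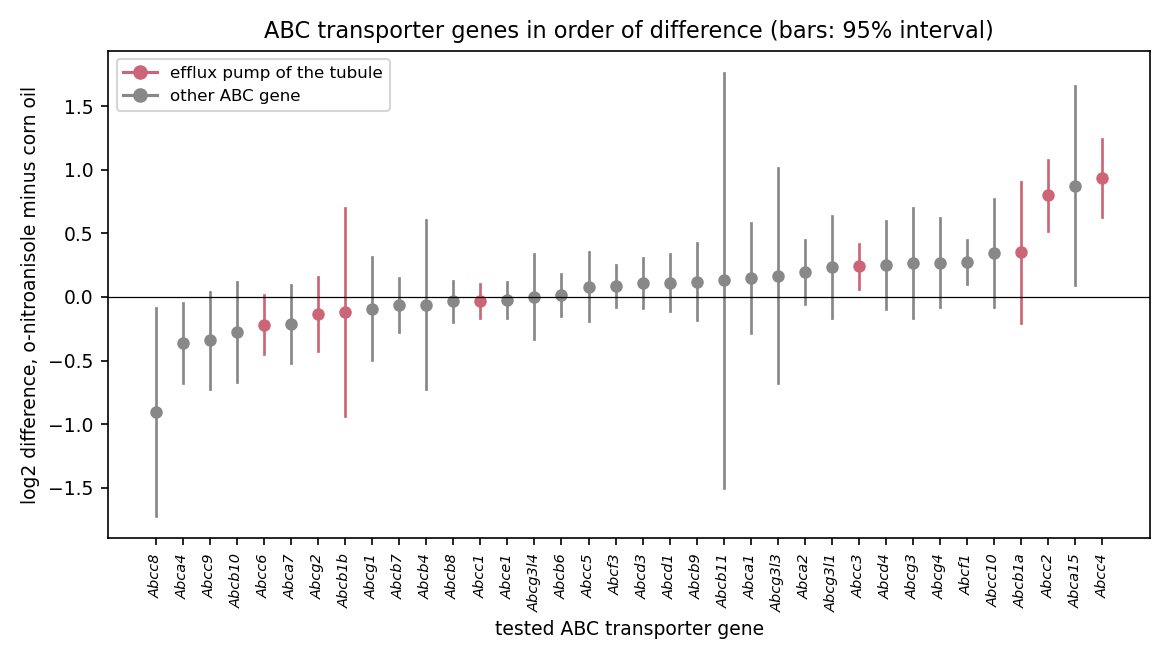
Log2 difference of the 36 tested ABC genes in rising order with 95% intervals, the 8 pumps in red and the other 28 in grey. Abcc4 and Abcc2 lie at the upper end with Abca15 between them, whose interval is wider, from 0.09 to 1.66.

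Pumps work in series with uptake carriers of the blood side, so carriers of the tubule were examined too, not all of them on that side. Of 14 uptake carriers and cation exporters, 12 were tested. By unadjusted p, 4 were higher and 4 lower, against 11.8% and 7.12% of all features, with a median of -0.01. In the trend and robust fit 1 was higher and 1 lower, against 1.61% of all features in either direction. These were Slc22a8, the organic anion transporter OAT3, at 0.31 ± 0.06 log2 (limma adjusted p = 0.0369 in that fit and 0.120 with defaults) and Slc22a7, OAT2, at -0.94 ± 0.13 (adjusted p = 0.0328 and 0.0880). On the log2 scale Slc22a7 read 0.13, 0.03 and -0.11 in corn oil and -0.73, -1.15 and -0.89 in o-nitroanisole, with no overlap. The lowest of the list was Slco1a6, an organic anion transporting polypeptide, at -1.71 ± 0.36. Slc22a6 (OAT1), which with OAT3 takes up most organic anions from blood, lay at 0.29 ± 0.07. Slc22a2 (OCT2), the main cation carrier of the blood side, lay at -0.76 ± 0.20. Slc22a8, Slc22a7, Slc22a6 and Slc22a2 were named after their values were seen.

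Proteins that anchor pumps at the luminal membrane were examined next. Of 9 tested scaffold and anchoring genes 1 was higher and 1 lower by unadjusted p, against 11.8% and 7.12% of all features, with a median of 0.01, and 0 passed an adjusted p of 0.05 in either fit. Pdzk1, a scaffold that binds pump tails, lay at 0.19 ± 0.06 log2 and Msn, the linker moesin, at -0.35 ± 0.10, both with no overlap between groups. Ezr and Rdx, the linkers ezrin and radixin, lay at 0.03 and 0.04.

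Among 15 tested nuclear receptors and transcription factors known to act on pump genes, 3 were higher and 0 lower by unadjusted p, against 11.8% and 7.12% of all features, with a median of 0.11, and 0 passed an adjusted p of 0.05 in either fit. The 3 were Nr1h4 (FXR, the bile acid receptor) at 0.36 ± 0.10 log2, Rxra, the shared partner of such receptors, at 0.28 ± 0.06 and Nr1i2 (PXR, the pregnane X receptor) at 0.24 ± 0.06. Nfe2l2, which encodes NRF2, lay at 0.22 ± 0.14 and its inhibitor Keap1 at 0.06 ± 0.07. The highest was the lipid receptor Ppara at 0.82 ± 0.46. All but Ppara were named after their values were seen.

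Genes of conjugation and of glutathione supply and breakdown went both ways. Of 16 tested, 4 were higher and 4 lower by unadjusted p, against 11.8% and 7.12% of all features, with a median of 0.17. In the trend and robust fit 2 were higher, against 1.24% of all features, and 0 lower. Those 2 were Ephx1, microsomal epoxide hydrolase, at 0.67 ± 0.06 log2 and the glutathione transferase Gsta1 at 0.42 ± 0.07, both named after their values were seen. The highest was Gstm1, another glutathione transferase, at 1.18 ± 0.53, and the lowest Gclm, a subunit of the enzyme that starts glutathione synthesis, at -1.24 ± 0.25. The other lower genes by unadjusted p were Gclc, Gss and Ggt1, and the other higher ones Gsr and Gstp1. Gsr, glutathione reductase, lay at 0.41 ± 0.09 and the glutathione transferase Gstp1 at 0.61 ± 0.20, both with no overlap. Gclc, Gss, Ggt1, Gsr and Gstp1 were named after their values were seen.

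Of 13 other NRF2 targets tested, 4 were higher and 0 lower by unadjusted p, against 11.8% and 7.12% of all features, with a median of 0.19, and 0 passed an adjusted p of 0.05 in either fit. The 4 were Hmox1 at 1.15 ± 0.22 log2, Nqo1 at 0.93 ± 0.25, Tkt at 0.55 ± 0.13 and Txnrd1 at 0.38 ± 0.08. These were named after their values were seen. The highest was Akr1b8, an aldo-keto reductase, at 2.28 ± 1.16 log2 and the lowest Osgin1 at -0.70 ± 0.29. Both had overlapping groups and an unadjusted p over 0.05. NRF2 targets held in the list of conjugation and glutathione genes above are not in this count. By unadjusted p that list went both ways, with Gclm, Gclc, Gss and Ggt1 lower and Ephx1, Gsta1, Gsr and Gstp1 higher. Of 3 AhR targets tested, 2 were higher and 1 lower by unadjusted p, against 11.8% and 7.12% of all features. Cyp1a1 was at least 7.30-fold higher in o-nitroanisole, with 0 of 3 corn oil arrays well above background. That bound sets the mean of the o-nitroanisole arrays against the higher of the probe's own signal and the lowest signal well above background on each corn oil array. Cyp1a1 entered the tests through its o-nitroanisole arrays alone. Its limma adjusted p (0.0820, and 0.0325 in the trend and robust fit) belongs to the difference from the corn oil signals as read, not to the bound. Ahrr, the repressor of the receptor, was the lowest at -1.05 ± 0.19. Nqo1, which is in the NRF2 list too, was higher at 0.93 ± 0.25.

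**Figure D4:**
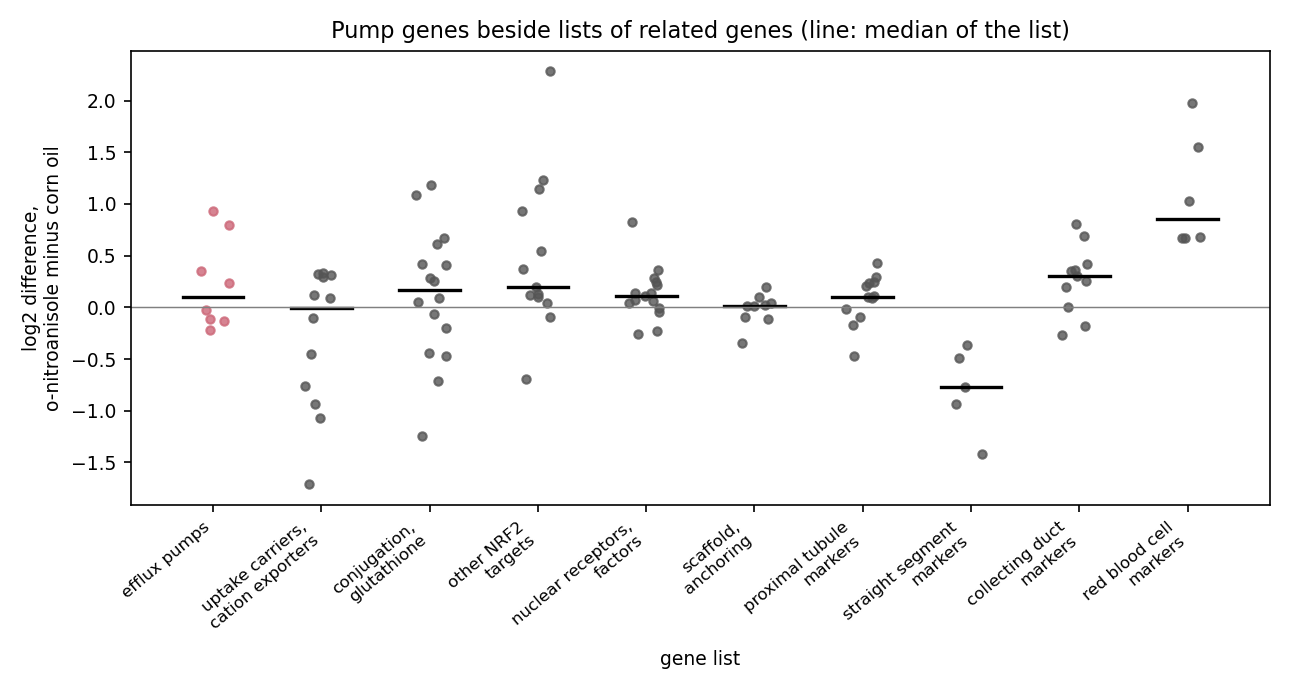
Log2 differences of the tested members of the pump list, of 5 lists of related genes and of 4 lists of cell type markers, each point 1 gene and each line the median of a list. The pumps have a median of 0.11, the straight segment markers -0.77 and the red blood cell markers 0.86.

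Cell type markers were read beside the pumps, by unadjusted p, where 11.8% of all features were higher and 7.12% lower. Of 12 proximal tubule markers, 3 were higher and 1 lower, with a median of 0.11, extremes of 0.43 for Slc5a12 and -0.47 for Ggt1, and a summed level of 2362 to 2435 in corn oil and 2468 to 2516 in o-nitroanisole. Of 5 markers of its straight segment, 0 were higher and 4 lower, with a median of -0.77, from -0.36 for Slc3a1 to -1.41 for Slc7a13. Their summed level was 416 to 577 in corn oil and 290.1 to 375 in o-nitroanisole. Collecting duct markers were higher for 7 of 11, with a median of 0.30, from -0.27 for Avpr2 to 0.81 for Aqp4, and sums of 219 to 236 and 244 to 281. Red blood cell markers were higher for 6 of 6 tested, with a median of 0.86, from 0.67 for Slc4a1 to 1.98 for Ahsp, and sums of 429 to 499 and 669 to 818. With an adjusted p of 0.05, 0 markers passed the default fit, as 0 of all features did. The trend and robust fit called 1.61% of all features in either direction and 1.24% with o-nitroanisole higher. In that fit 1 of 12 proximal tubule, 2 of 11 collecting duct and 3 of 6 red blood cell markers were higher. Of the straight segment markers 1 of 5 was lower. In these lists every marker with a probe was well above background on some array. Slc22a7 and Slc22a6 belong to these tubule lists as well as to the carriers. The part of these shifts in the pump differences was not tested.

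Of the neutrophil and mast cell markers, 2 of 3 tested were higher by unadjusted p and in the trend and robust fit. Of all features 11.8% and 1.24% were so. The median of these markers was 1.15. The values were 1.76 for S100a8 (adjusted p = 0.0415 in that fit and 0.0961 with defaults), 1.15 for S100a9 (0.0444 and 0.103), which was named after its value was seen, and 0.17 for Csf3r. Their summed level was 0.272 to 0.310 in corn oil and 0.566 to 0.880 in o-nitroanisole, and the part of this shift was not tested either. At an unadjusted p under 0.05, podocytes had 1 higher and 1 lower of 6, endothelium 0 of 7, vessel wall and fibroblast 0 of 5, and lymphocytes 0 of 4. The loop of Henle and distal tubule had 1 lower of 4, the medulla 1 higher and 1 lower of 5, and macrophages 2 higher of 6. Pvalb, of the distal tubule, and Cpa3, of mast cells, were at background on all arrays. Hepatocytes, which also hold Abcc2, had 0 of 5, with the summed level of those markers at 1.25 to 7.47 in corn oil and 2.07 to 4.93 in o-nitroanisole.

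The genes whose values over the 6 arrays were most like Abcc4 were Wwp2 (Pearson r = 0.999), Taf11 (0.997) and Mff (0.997), out of 11794 named genes. Their log2 differences were 0.29, 0.30 and 0.09, all smaller than that of Abcc4. Most like Abcc2 were Ndufb10 (r = 0.996), the amino acid transporter Slc1a5 (0.996) and Aldh1l1 (0.994), at 0.20, 0.40 and 0.52. Among the pumps themselves, Abcc2 followed Abcc3 most closely (r = 0.970), and Abcc4 ran opposite to Abcc6 (r = -0.900). These are descriptions over 6 arrays that share the split into groups.

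**Figure D5:**
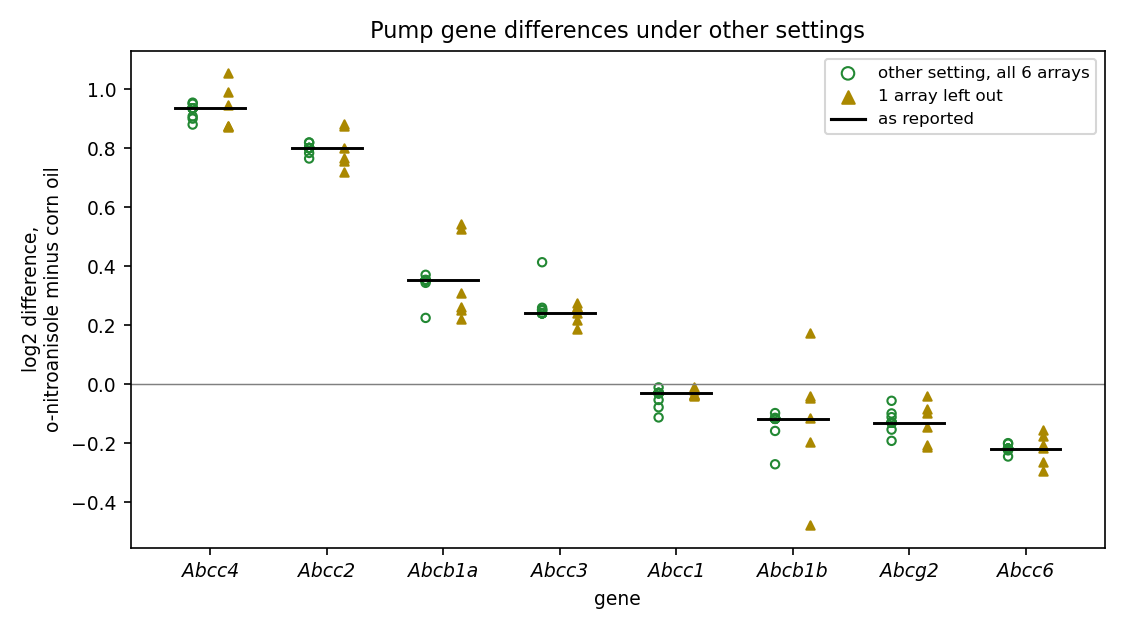
Log2 difference of each pump gene as reported (line), under other settings with all 6 arrays (circles) and with 1 array left out (triangles). Abcc4 and Abcc2 stay between 0.72 and 1.05, and Abcb1b spans 0 on leaving out single o-nitroanisole rats.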

How the data were processed

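The deposited files of each array list, per the file headers, the intensity of every spot as extracted by Agilent's software (Feature Extraction, release 10.7 in the submitters' processing notes). The processed signal is background-subtracted and detrended within the array. The deposited value table holds a ratio, each processed signal over its array's 75th percentile; its 3 corn oil columns hold the same 3 arrays under other numbers, so the numbering of the corn oil rats is uncertain. The scanner files' flags give spots well above background (unit other, per the file headers).

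Processed signals were divided by the 75th percentile of the array's non-control probes and set on a log2 scale. No spot was saturated, 51 outlier spots were set to missing and 84 spike-in probes left out. Accessions were matched without version to RefSeq's gene table of assembly GRCr8 (27460 probes, 15284 symbols); the array headers name build rn4. A probe was tested if well above background on every array of a group (41096 probes). Genes took their brightest probe and unnamed probes stood alone (32428 features), as a filter on dim probes and a rule on several probes can change a value. The comparison used lmFit and eBayes of limma 3.58.1 (R 4.3.3), with Benjamini-Hochberg adjustment over all features, and checked on simulated data. Figures were drawn with matplotlib 3.10.9 in Python 3.11.15. The members, lists and tests were chosen with earlier results of these data known.

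All 8 pumps and their probes were to be named, with the extremes of each list, the 3 highest and lowest other ABC genes and the 3 genes most like each of the 2 pumps of smallest p. For 2 lists, 1 extreme member is not reported here. The 3 arrays per group limit the precision. The labels call them biological replicates. Whether replicate numbers pair rats could not be settled, as the numbering of the corn oil rats is uncertain. Deviations from the group means correlated by 0.091, 0.059 and 0.026 for arrays of the same number. Arrays of unlike number gave -0.097 to 0.033.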

Additional observations from a re-analysis of the deposited data

How the results depend on the processing

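The count of 0 pump genes past an adjusted p of 0.05 was the same under both other scalings (quantile, median), under either other dim filter (none, or all 6 arrays), with outlier spots included, with the mean of a gene's probes, with array weights, from the value table and in each fit that left out 1 array. Normexp with an offset of 50 called 1 pump gene, Abcc4 (adjusted p = 0.0476), 2 pump probes and 115 genes in all. Normexp used the median spot signal and median local background. The trend and robust fit called 2 pump genes, 4 pump probes and 522 genes, and an adjusted p under 0.10 gave 2, 4 and 359. Default fits without 1 array called 0 to 4 genes in all, the 4 without corn oil replicate 3, and 0 pump genes and probes. In the trend and robust fit, the count without 1 array was 6, 62 and 69 genes for corn oil replicates 1, 2 and 3 and 35, 0 and 24 for o-nitroanisole replicates 1, 2 and 3, with 0 to 1 pump genes and 0 to 3 pump probes; this and the second numbering of the block were added after seeing the data. The replicate block called 0 genes, as did the block with the value table's numbering, and changed no call. Abcb1b reversed to 0.173 without o-nitroanisole replicate 2, its lowest array, in both fits, and ranged down to -0.479 without replicate 3. No other pump changed sign in the settings run. For the other moves the cause was not tested. A block for slide was not run because each slide carried 1 group. Signal near background limits Abcb1a and the dimmest probes of Abcc1 and Abcb1b.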
